A study of Danio rerio with 19 samples.

Results

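The stress-activated kinase genes *map3k15* (ENSDARG00000013310), *map2k6* (ENSDARG00000099184) and *mapk14a* (ENSDARG00000000857) were followed through 4 populations of zebrafish islet cells. They are 3 of the 31901 genes in the count tables. They were picked by name, with their levels in the sorted cells already known, because together they spell out a kinase cascade that ends at p38. In such a cascade a MAP kinase kinase kinase (MAP3K) phosphorylates a MAP kinase kinase (MAP2K), which in turn phosphorylates p38, and p38 then acts on further kinases and on transcription factors. The pathway answers osmotic, oxidative and inflammatory stress, and in the islet p38 is best known from β-cells under stress. *map3k15* encodes ASK3, a MAP3K of the apoptosis signal-regulating kinase family described in mammals as a sensor of osmotic stress. *map2k6* encodes MKK6, a MAP2K that acts on p38, and *mapk14a* encodes a zebrafish copy of p38α.

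The 19 RNA-seq libraries were made from FACS-sorted cells of dissected main islets, 2 to 4 pancreata to a library, of adult males and females (6 to 10 months) carrying the transgenes *sst1.1:eGFP* and *ins:NTR\*-P2A-mCherry*. Bihormonal cells (n = 6) carried GFP and mCherry and were taken 20 days post treatment (dpt) from fish treated for 18 hours with 2.5 µM nifurpirinol (NFP), a prodrug that nitroreductase (NTR) in *ins*-expressing cells turns into a toxin, so that β-cells die. GFPlow cells (n = 3), GFPhigh cells (n = 3) and β-cells (mCherry alone, n = 7) came from control fish kept in 0.16% DMSO. All 4 populations therefore carry both transgenes, the controls included. In the sort, GFPlow and GFPhigh cells were separated only by how brightly GFP driven by the *sst1.1* promoter shone. These populations were compared to learn how closely the *ins*-expressing cells that appear after ablation resemble β-cells and each of the somatostatin-producing δ-cells.

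Libraries held 5599246 to 18077658 counts, with a median of 10851802. The hormone genes followed the labels: *ins* spanned 1953000 to 3430000 normalized counts in β-cells and 197200 to 867000 in bihormonal cells, *sst1.1* was at least 2887000 in every bihormonal and 4474000 in every GFPhigh library, and *sst2* was 1429000 to 2102000 in GFPlow cells. GFPlow libraries also held *ghrl*, the ghrelin gene of ε-cells, at 34520 to 61710 normalized counts, against 60.1 to 434.5 in GFPhigh libraries, and their summed level of 14 acinar genes ran from 174.0 to 5112, against 163.4 to 343.2 in GFPhigh libraries. *gcga*, the glucagon gene of α-cells, was at 13330 to 25840 in GFPlow and 94.3 to 4509 in GFPhigh libraries. In bihormonal and β-cell libraries it was at 4039 to 64990 and 6982 to 13790. The summed level of 9 ductal genes was 5909 to 6289 in GFPlow and 1869 to 3008 in GFPhigh libraries. This sum was 1331 to 2760 in bihormonal and 4895 to 9294 in β-cell libraries. Of the 5 ductal genes that could be tested, 2 were higher in GFPlow than in GFPhigh cells, where 7.83% of all genes were higher. These 2 were the only ones of the 5 with a log2 fold change above 0, and the median of the 5 was -0.49. The part of such cells in the values of GFPlow or any other population was not tested. None of the 7 endothelial and 15 immune markers had enough counts to be tested, with summed levels up to 28.2 and, in a β-cell library, 99.3. A normalized count here is a read count scaled for library size and composition (TMM), and no value is corrected for gene length, so levels are compared between libraries and not between genes. By their numbers the libraries form 6 blocks of close numbers, here sets A to F, and what a block stands for is not given in the sources used here. Bihormonal 1 to 3 are alone in set A and GFPlow 1 is alone in set B.

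All 3 kinase genes were highest in GFPlow cells, and in none of them did a library of another group reach the lowest GFPlow library. These differences are part of what the genes were picked on, so they are given as a description and no p is printed. Whether the genes passed is given below beside all genes, and nothing is read from it. Outside GFPlow cells the groups overlapped in part, with *map3k15* between 2.32 and 186.2 normalized counts, *map2k6* between 364.6 and 821.5 and *mapk14a* between 248.8 and 697.6. Because these are bulk libraries, more cells of a type and more RNA per cell cannot be told apart.

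*map3k15*, the MAP3K, had 8668, 5934 and 6983 normalized counts in GFPlow cells, against 98.04, 152.1 and 129.5 in GFPhigh cells. In bihormonal cells it had 30.0, 2.32, 75.2, 11.5, 28.9 and 186.2 normalized counts (lowest 2.32, median 29.4, highest 186.2), of which the lowest rests on 1 read. In β-cells it had 8.99, 6.51, 6.42, 3.47, 4.07, 15.07 and 9.48 (lowest 3.47, median 6.51, highest 15.07), from 4 to 17 reads a library. The order of the group means was thus GFPlow (7195 ± 1379, SD, n = 3), GFPhigh (126.5 ± 27.1, n = 3), bihormonal (55.7 ± 68.7, n = 6) and β-cells (7.71 ± 3.94, n = 7). GFPhigh libraries lay inside the range of bihormonal libraries, and the lowest bihormonal libraries lay among the β-cells, so only the GFPlow and the GFPhigh groups stood apart from β-cells library by library. Relative to GFPhigh cells the GFPlow mean was 56.8-fold higher (log2 fold change 5.83, SE 0.82), and relative to β-cells 926-fold higher in the fitted model (9.85, SE 0.68).

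*map2k6*, the MAP2K, had 17340, 22740 and 15400 normalized counts in GFPlow cells, against 451.5, 596.6 and 803.2 in GFPhigh cells. Bihormonal libraries held 783.9, 364.6, 590.9, 427.9, 470.9 and 764.7 (lowest 364.6, median 530.9, highest 783.9), and β-cell libraries 705.5, 726.1, 635.3, 629.8, 611.5, 742.9 and 821.5 (lowest 611.5, median 705.5, highest 821.5). Outside GFPlow cells, all 16 libraries lay between 364.6 and 821.5, and the groups overlapped. The GFPlow mean of 18490 ± 3801 (SD, n = 3) was 30.0-fold that of GFPhigh cells (617.1 ± 176.8, n = 3), 4.91 on the log2 scale (SE 0.33), and 26.6-fold that of β-cells (696.1 ± 75.5, n = 7), 4.73 on the log2 scale (SE 0.23).

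*mapk14a*, the p38α gene at the end of the cascade, had 3590, 3605 and 2516 normalized counts in GFPlow cells, against 340.1, 275.9 and 451.6 in GFPhigh cells. Bihormonal libraries held 327.9, 283.3, 355.1, 280.5, 248.8 and 341.4 (lowest 248.8, median 305.6, highest 355.1), and β-cell libraries 511.2, 677.3, 697.6, 499.0, 489.5, 338.6 and 369.7 (lowest 338.6, median 499.0, highest 697.6). Here the order below GFPlow cells was β-cells (511.8 ± 137.1, SD, n = 7), GFPhigh (355.9 ± 88.9, n = 3) and bihormonal cells (306.2 ± 41.4, n = 6), each overlapping the next. The GFPlow mean of 3237 ± 625 (n = 3) was 9.09-fold that of GFPhigh cells (log2 fold change 3.18, SE 0.29) and 6.32-fold that of β-cells (2.66, SE 0.21), the smallest of the 3 differences.

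**Figure D1:**
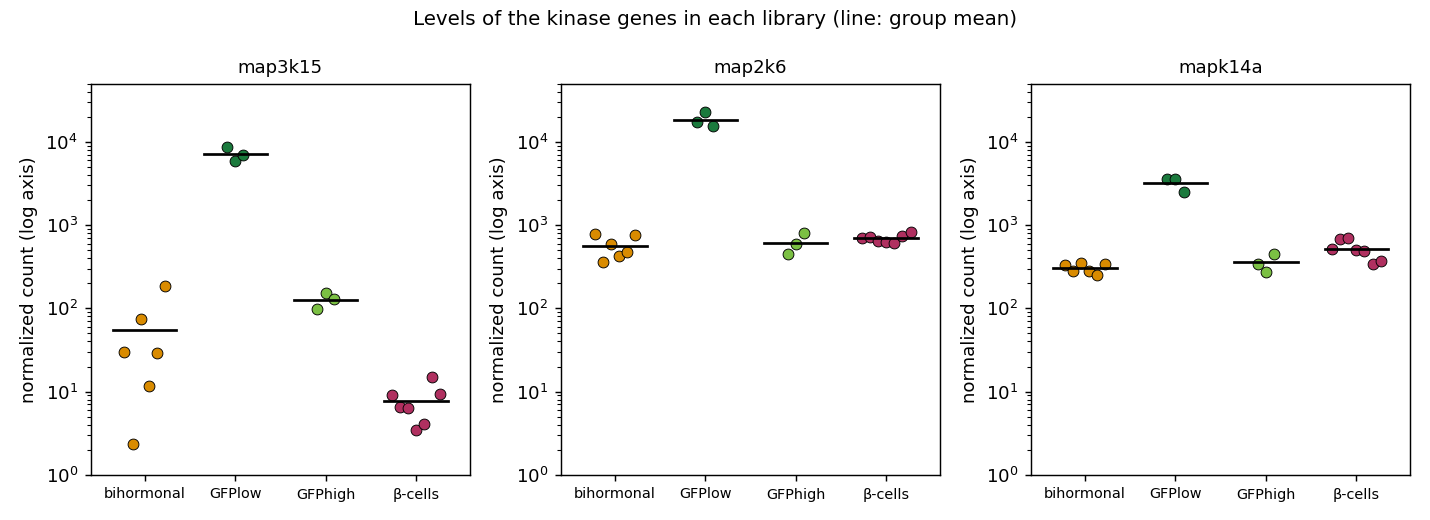
Normalized counts (log axis) of *map3k15*, *map2k6* and *mapk14a* in each of the 19 libraries, by population, 1 point per library and a line at the group mean. GFPlow libraries sit highest in each panel (at least 5934, 15400 and 2516), and only *map3k15* also spreads widely among the other populations, from 2.32 to 186.2.

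By the thresholds used throughout (adjusted p under 0.05 over all genes tested and above 2-fold), 3 of 3 kinase genes passed and were higher in GFPlow than in GFPhigh cells, where 15.7% of all 14693 genes tested passed and 7.83% were higher. Likewise 3 of 3 passed and were higher in GFPlow than in β-cells, where 17.7% passed and 9.87% were higher. The GFPlow and GFPhigh libraries did not overlap for any of the 3 genes, as for 38.6% of all genes, and GFPlow and β-cell libraries did not overlap either, as for 26.2%. Nothing is read from these counts, since the genes were chosen on these levels. All 3 genes passed the filter on low counts (a mean of at least 10 over all libraries). The mean of *map3k15* comes mostly from its GFPlow libraries, but it also passed the filter with bihormonal and β-cell libraries alone. On library totals alone, a scaling that moves the median gene up by 0.59 on the log2 scale, the GFPlow over GFPhigh differences were 6.40, 5.44 and 3.71 log2 units for *map3k15*, *map2k6* and *mapk14a*.

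GFPlow and β-cells shared library set D, with a pair of libraries each, and there the differences could be read without crossing sets. *map3k15* averaged 6458 normalized counts in GFPlow and 6.46 in β-cells of set D, and *map2k6* averaged 19070 and 681. The ratios of GFPlow to β-cells within the set were 999 for *map3k15*, 28.0 for *map2k6* and 4.45 for *mapk14a*. GFPlow and GFPhigh cells shared no set, so the set and the population cannot be told apart by direct comparison between them. With the set as a term in the model, the *mapk14a* difference was 2.47 in GFPlow against GFPhigh cells and 2.15 in GFPlow against β-cells on the log2 scale.

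The comparison of bihormonal cells with β-cells shares no library with the GFPlow and GFPhigh groups, and there the 3 genes were tested. The spread used in the test was still estimated over all 19 libraries, GFPlow and GFPhigh included. The genes were also picked with their levels in sorted cells known. *map3k15* rose in bihormonal cells, to a mean of 55.7 ± 68.7 normalized counts, against 7.71 ± 3.94 in β-cells. The log2 fold change was 2.92 (SE 0.57, adjusted p = 0.000717, edgeR's quasi-likelihood test, adjusted after Benjamini and Hochberg over all genes), a 7.55-fold difference, although the ranges of the groups overlapped. It was the only 1 of the 3 genes to pass, where 13.2% of all genes passed (7.39% higher, 5.76% lower), and none of the 3 separated the groups library by library, as 9.07% of all genes did. Without bihormonal 6, which has the highest value, the log2 fold change was 2.03 (adjusted p = 0.00305). Fitted on the bihormonal and β-cell libraries alone, it was 2.87 (adjusted p = 0.0058 by the same test). Within set C the bihormonal mean was 2.25 times that of the β-cell library (20.2 and 8.99 normalized counts), and within set F it was 15.2 times (186.2 and 12.3).

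*mapk14a* lay lower in bihormonal than in β-cells, by 1.67-fold (log2 fold change -0.74, SE 0.18, adjusted p = 0.00583 by the same test), which is short of the 2-fold threshold. On library totals alone the value was -1.35 (adjusted p = 0.000374) and passed, where the median of all genes itself moved by -0.64. The β-cell values differed between sets, with means of 511.2 in set C, 687.5 in set D, 494.2 in set E and 354.2 in set F. In set C bihormonal cells held 264.7 normalized counts, against 511.2 in β-cells, and in set F they held 341.4, against 354.2. With the set as a term, the log2 fold change was -0.61 (adjusted p = 0.169).

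*map2k6* did not differ detectably between bihormonal cells (567.1 ± 176.8 normalized counts, SD, n = 6) and β-cells (696.1 ± 75.5, n = 7). Its log2 fold change was -0.29 (SE 0.19, adjusted p = 0.343 by edgeR's quasi-likelihood test). On library totals alone, where the median of all genes moved by -0.64, it was -0.85 (adjusted p = 0.0128), short of 2-fold. Bihormonal libraries were nevertheless more scattered than β-cell libraries, with coefficients of variation of 31.2% and 10.8%.

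Against GFPhigh cells, the other δ-cell population, bihormonal cells had lower means of all 3 genes. The log2 fold changes, given as a description, were -1.11 (SE 0.59) for *map3k15*, -0.12 (SE 0.24) for *map2k6* and -0.22 (SE 0.23) for *mapk14a*. Without bihormonal 6 the *map3k15* value was -2.00, and with the set as a term it was -0.51. None of the 3 passed, where 2.76% of all genes did, and bihormonal and GFPhigh libraries overlapped for each of them, while they did not overlap for 11.3% of all genes. Within set F, the only set with both populations, 1 bihormonal and 1 GFPhigh library held 186.2 and 129.5 normalized counts of *map3k15*, 764.7 and 803.2 of *map2k6*, and 341.4 and 451.6 of *mapk14a*.

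*map3k15* followed *sst2*, the hormone gene that marks the GFPlow cells, also in the libraries where both were low. This was noticed in the data and is given as a description. The study counts *map3k15* among the markers of *sst2* δ-cells known from earlier work, and reports it as specific to GFPlow cells. For each 1000 normalized counts of *sst2* there were 10.9, 4.53, 4.58, 1.52, 4.16 and 4.79 counts of *map3k15* in the bihormonal libraries, 5.33, 2.82 and 4.89 in the GFPlow libraries, 8.40, 4.05 and 3.66 in the GFPhigh libraries and 1.56 to 8.18 (median 3.21) in the 7 β-cell libraries. The ratio thus spanned 7.17-fold over all 19 libraries, from 1.52 to 10.9, while *sst2* itself spanned 4096-fold, from 513.2 normalized counts in bihormonal 2 to 2102000 in GFPlow 2. In the 16 libraries outside GFPlow, the correlation of *map3k15* and *sst2* on the log2 scale was r = 0.91, across groups that differ in both genes.

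The rise of *map3k15* in bihormonal over β-cells therefore stands beside one of *sst2*, which averaged 12180 ± 14150 normalized counts in bihormonal cells and 2830 ± 2429 in β-cells (log2 fold change 2.11, SE 0.70, adjusted p = 0.0377, edgeR's quasi-likelihood test). Of 5 markers of *sst2* δ-cells, 4 could be tested and 2 passed and rose, *sst2* and *sst1.2*, where 7.39% of all genes rose. Among these 4, 3 had a log2 fold change above 0 (median 1.74). An unadjusted p under 0.05 by the same test was found for 3 of the 4, as for 4286 of all 14693 genes tested. *cdx4* was at 0 to 3.84 normalized counts in bihormonal and 0 to 5.69 in β-cell libraries. The summed level of the 5 markers was 22870 to 142200 in bihormonal and 1038 to 9840 in β-cell libraries. This sum includes *sst2* and *sst1.2* and adds little to them. In bihormonal 4 *sst1.2* was at 134600 and *sst2* at 7598 normalized counts, while in bihormonal 6 they were at 11360 and 38830. The part that *sst2* δ-cells or their RNA have in the *map3k15* values was not tested.

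*map2k6* and *mapk14a* did not share this pattern. Over the same 16 libraries their correlations with *sst2* were r = 0.20 and r = -0.48, and for each 1000 counts of *sst2* the *map2k6* counts ran from 10.7 in a GFPlow library to 867.7 in a β-cell library. In those 16 libraries *mapk14a* ran from 248.8 to 697.6 normalized counts and was lowest where *sst1.1* and *sst1.2*, the other somatostatin genes, were high (r = -0.79 and -0.81), across groups that differ in all of these genes. For *map2k6* the same correlations were -0.46 and -0.40.

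**Figure D2:**
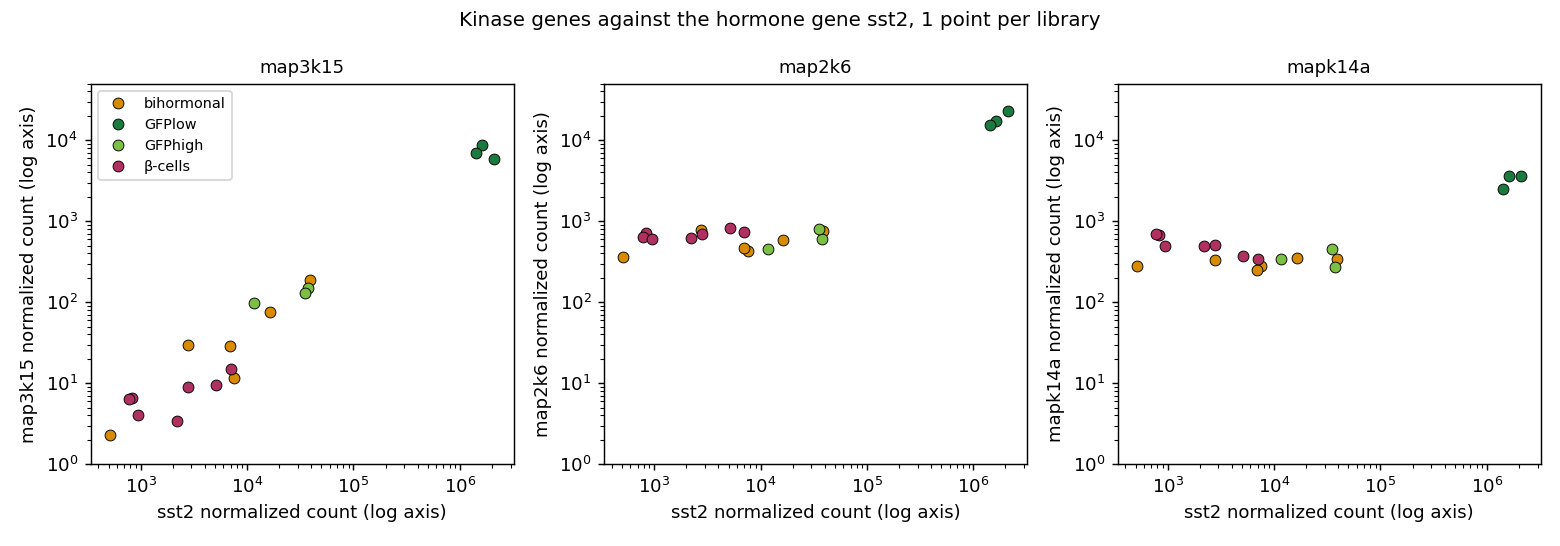
Normalized counts of *map3k15*, *map2k6* and *mapk14a* against those of *sst2*, both on log axes, 1 point per library, coloured by population. *map3k15* climbs with *sst2* over the whole range (r = 0.91 in the 16 libraries outside GFPlow), while the other two stay between 364.6 and 821.5 and between 248.8 and 697.6 until the GFPlow libraries.

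The genes whose profiles were most like each kinase gene, by Pearson correlation of log2(normalized count + 1) over 19 libraries, are given as a description. All such values rest largely on the 3 GFPlow libraries, on whose levels the kinase genes were picked. For *map3k15* the closest of 14692 genes were MDK (a heparin-binding growth factor, r = 0.981), AEBP1 (0.977), kctd12.2 (0.977), *sst2* (0.976) and *cldni* (a claudin, 0.976), and outside GFPlow these kept r of 0.90 to 0.93. For *map2k6* they were *uacaa* (0.987), MTTP (a lipid transfer protein of lipoprotein assembly, 0.982), NEUROD6 (a neurogenic transcription factor, 0.982), GALNT18 (0.978) and *uts2r1* (a urotensin receptor, 0.977). Outside GFPlow their r was 0.71 for *uacaa*, 0.35 for MTTP, 0.23 for GALNT18 and 0.19 for *uts2r1*, while NEUROD6 averaged 65.5 normalized counts in GFPlow cells and had no read in any other population.

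For *mapk14a* the closest gene was UGP2 (r = 0.953), an enzyme of UDP-glucose synthesis, and *map2k6* came next of 14692 (0.952), ahead of NHSL2 (0.949), KCNK3 (a two-pore potassium channel, 0.947) and ETV4 (an ETS transcription factor, 0.946). Outside GFPlow, UGP2, NHSL2, KCNK3 and ETV4 kept r of 0.57 to 0.65. *mapk14a* stood at place 24 for *map2k6*. *map3k15* was farther off, at place 233 for *map2k6* (r = 0.869) and farther down still for *mapk14a* (0.748). Outside GFPlow the correlations among the kinase genes were 0.46 for *map2k6* with *mapk14a*, 0.19 for *map3k15* with *map2k6* and -0.39 for *map3k15* with *mapk14a*. Names in capitals are human symbols that the gene name table gives to a zebrafish gene.

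The RNA levels of *map2k6* and *mapk14a* also shifted against each other. Only RNA was measured, so the activity of the kinases cannot be read from these values. In GFPlow cells there were 4.83, 6.31 and 6.12 *map2k6* counts per *mapk14a* count, against 1.33, 2.16 and 1.78 in GFPhigh cells. The ratio was 1.29 to 2.39 in bihormonal libraries and 0.911 to 2.22 in β-cell libraries. These are ratios of counts of genes of different length, so only their differences between libraries can be read, and the GFPlow libraries lay above all 16 others.

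The relatives of the 3 kinases that were matched and tested at the same steps did not have GFPlow differences as large as theirs. The 3 kinase genes were picked with these levels known, so nothing is read from that contrast. The relatives *map2k3* and *map3k6* could not be read. The second p38α gene (MAPK14 in the name table, ENSDARG00000028721) had 392.5, 632.1 and 377.9 normalized counts in GFPlow cells, against 670.5, 767.5 and 448.4 in GFPhigh cells. It did not pass the test (log2 fold change -0.43, SE 0.24, adjusted p = 0.241, edgeR's quasi-likelihood test), and its sign turned to 0.14 on library totals. In bihormonal cells it averaged 559.3, against 449.5 in β-cells (log2 fold change 0.32, adjusted p = 0.207 by the same test). Reads shared between the pair of p38α genes remain as the authors' counting assigned them.

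**Figure D3:**
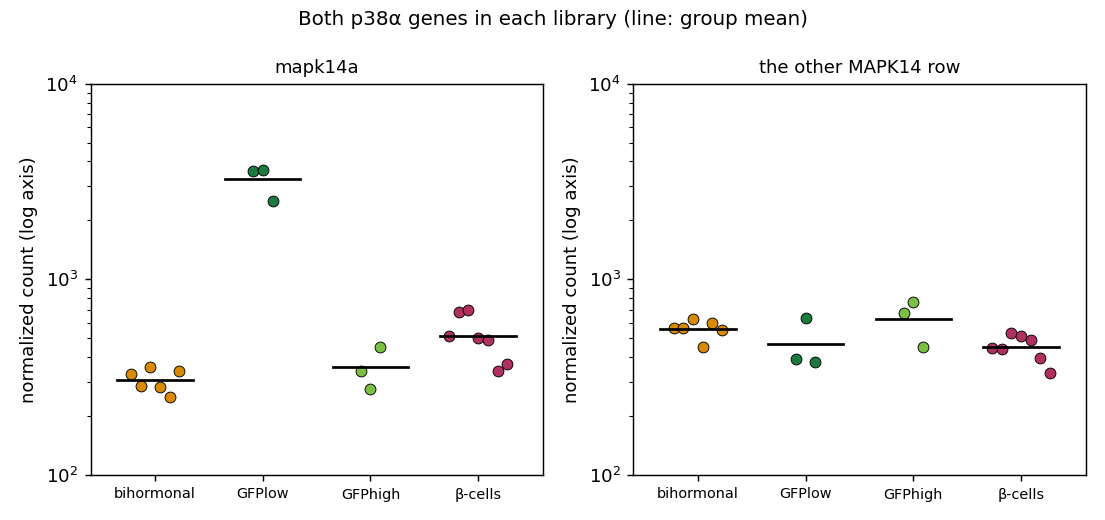
Normalized counts (log axis) of *mapk14a* (left) and the second p38α gene (right) in each library, by population, with a line at the group mean. *mapk14a* is at 2516 to 3605 in GFPlow cells and under 698 elsewhere, whereas the second gene stays between 332.4 and 767.5 in all 19 libraries.

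The other p38 genes did not pass either in GFPlow against GFPhigh cells. *mapk11* (p38β) averaged 87.4 ± 13.8 normalized counts in GFPlow and 41.5 ± 6.29 in GFPhigh cells (SD, n = 3 each), with a log2 fold change of 1.07 (SE 0.39, adjusted p = 0.0642 by edgeR's quasi-likelihood test). It passed with DESeq2's Wald test (1.11, adjusted p = 0.0336), on library totals (1.64, adjusted p = 0.0165) and without bihormonal 5 (adjusted p = 0.0399). MAPK12 (p38γ, ENSDARG00000042021) averaged 326.3 ± 42.9 and 489.1 ± 41.0 (log2 fold change -0.58, SE 0.35), and *mapk13* (p38δ) 94.7 ± 17.4 and 67.4 ± 45.8 (0.49, SE 0.45). Against β-cells, MAPK12 was lower in GFPlow cells, at 282.6 to 368.4 normalized counts, against 584.4 to 1025 in β-cells (log2 fold change -1.30, SE 0.31, adjusted p = 0.00361, edgeR's quasi-likelihood test).

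At the MAP2K step, MAP2K4 and *map2k4b*, the genes for MKK4, which acts on JNK as well as p38, averaged 246.2 ± 19.7 and 107.9 ± 6.98 normalized counts in GFPlow cells, against 288.1 ± 98.4 and 122.7 ± 15.3 in GFPhigh cells. At the MAP3K step, MAP3K5 (ASK1, the best known relative of ASK3) averaged 335.4 ± 40.7 in GFPlow and 330.8 ± 113.7 in GFPhigh cells, a log2 fold change of 0.02 (SE 0.33). The sign of all 3 differences turned under some settings, as given with the other settings. *map2k3* and *map3k6* were matched to no row and are not analysed here.

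The wider p38 pathway was read from a list of 70 further genes, of which 60 had enough counts to be tested. It holds other MAP3Ks and their partners, the MAP2Ks and p38 genes above, the kinases and transcription factors that p38 acts on, and the phosphatases that switch it off. In bihormonal against β-cells 6 rose and 1 fell, 11.7% of those tested, near the 13.2% of all genes that passed. The median log2 fold change of the list was -0.03, and that of all genes 0.00. On library totals 4 of the 60 rose and 11 fell, where 707 of all genes rose and 2896 fell.

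The 7 that passed in bihormonal against β-cells were 4 p38 targets, 2 MAP3K partners and 1 MAP3K. MEF2C, a MEF2 transcription factor and p38 substrate, averaged 88.2 ± 59.8 normalized counts in bihormonal cells (n = 6) and 1.63 ± 2.10 in β-cells (n = 7), 5.78 on the log2 scale (SE 0.62, adjusted p = 5.5e-07, edgeR's quasi-likelihood test). MEF2A rose by 1.31 (SE 0.23, adjusted p = 0.000189), a call lost on library totals (0.74, adjusted p = 0.0507), while *mef2ab*, another gene of this family, fell to 24.9 ± 13.1 in bihormonal cells, against 105.8 ± 28.9 in β-cells (-2.09, SE 0.36, adjusted p = 0.000200). GADD45G, whose mammalian protein activates the MAP3K MEKK4, averaged 4349 ± 1908 and 1192 ± 816 (1.87, SE 0.36, adjusted p = 0.000609). The other 3 that rose were MAP3K13 (2.05), a GADD45A gene (ENSDARG00000104571, 1.27) and ZFP36L2 (2.13). The other GADD45A gene (ENSDARG00000043581) averaged lower in bihormonal cells, at 998.0 ± 142.1 against 1396 ± 574 in β-cells, and did not pass. With the set as a term 5 pathway genes passed, MEF2C, MEF2A, *mef2ab* and GADD45G among them. The 13.2% of all genes is from the main fit and does not apply to that setting.

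In GFPlow against GFPhigh cells 3 of the 60 pathway genes rose and 7 fell, 16.7% of those tested, near the 15.7% of all genes. The list's median was -0.19, against 0.04 for all genes. This split depends on the scaling, with 8 higher and 0 lower on library totals, where the median of all genes was itself 0.59. The count was 2 without GFPlow 1 or GFPlow 2, 4 without GFPhigh 2, 5 without GFPhigh 1 and 6 without GFPlow 3. It was 2 with the set as a term. Over all genes 1636 to 2651 passed without 1 library, and 819 with the set as a term.

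The 3 that rose in GFPlow over GFPhigh cells are listed as p38 targets, a tier in which 2 others fell. ZFP36L1 (ENSDARG00000016154), of the mRNA-binding protein family regulated by the p38-activated kinase MK2, averaged 282.9 ± 76.7 normalized counts in GFPlow and 33.3 ± 36.6 in GFPhigh cells (n = 3 each), a log2 fold change of 3.09 (SE 0.87, adjusted p = 0.0157, edgeR's quasi-likelihood test). MKNK2 (ENSDARG00000011373), a kinase activated by ERK and p38, averaged 72.5 ± 4.82 and 13.0 ± 6.46 (2.46, SE 0.69, adjusted p = 0.0155 by the same test). MEF2A averaged 652.8 ± 57.8 and 316.4 ± 48.0 (1.05, SE 0.33, adjusted p = 0.0291 by the same test). Each of these calls was lost when 1 of several libraries was left out, ZFP36L1 without GFPhigh 1, GFPhigh 3 or GFPlow 1, MKNK2 without GFPhigh 1 or GFPhigh 2, and MEF2A without GFPhigh 1, GFPhigh 3 or any 1 GFPlow library. The ZFP36L1 value was 4.51 without GFPhigh 2 and 1.72 (adjusted p = 0.507 by the same test) with the set as a term. A second MKNK2 gene (ENSDARG00000015164) averaged lower in GFPlow cells, at 181.9 ± 91.6 normalized counts, against 441.2 ± 290.4 in GFPhigh cells. So did a second ZFP36L1 gene (ENSDARG00000021443), at 1260 ± 217 and 2866 ± 390, and neither passed.

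The 7 that fell in GFPlow cells were 3 MAP3K genes (MAP3K1, MAP3K13 and *taok1b*), 2 partners (GADD45A, ENSDARG00000043581, and MAPK8IP2) and 2 targets (RPS6KA4 and ZFP36L2). For *taok1b* the groups overlapped, at 132.8 to 159.0 normalized counts in GFPlow and 150.5 to 574.2 (median 209.4) in GFPhigh libraries. RPS6KA4 was at 22.9 to 47.1 in GFPlow and 54.5 to 156.8 (median 57.9) in GFPhigh libraries. MAP3K1 (MEKK1, acting mostly on JNK) averaged 155.0 ± 21.7 normalized counts in GFPlow and 525.3 ± 213.3 in GFPhigh cells, a log2 fold change of -1.76 (SE 0.50, adjusted p = 0.0172, edgeR's quasi-likelihood test). MAPK8IP2, the scaffold JIP2, averaged 285.6 ± 81.8 and 592.0 ± 133.3 (-1.05, SE 0.30, adjusted p = 0.0159). GADD45A averaged 213.3 ± 35.8 and 466.9 ± 96.1 (-1.13, SE 0.34, adjusted p = 0.0217). None of these 3 passed on library totals. MAP3K1 was also lost without GFPhigh 2, GFPlow 1 or GFPlow 2, and MAPK8IP2 without GFPhigh 2 or GFPlow 2. GADD45A was lost without GFPhigh 1, GFPhigh 3, GFPlow 1 or GFPlow 2. The other GADD45A gene (ENSDARG00000104571) averaged higher in GFPlow cells, at 296.3 ± 18.3 against 127.2 ± 34.7 in GFPhigh cells, and did not pass.

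Against β-cells, 7 of the 60 pathway genes rose and 6 fell in GFPlow cells (median 0.05, against -0.06 for all genes), and 17.7% of all genes passed. MEF2A averaged 652.8 ± 57.8 normalized counts in GFPlow and 88.3 ± 17.8 in β-cells, 2.89 on the log2 scale (SE 0.26, adjusted p = 2.7e-08, edgeR's quasi-likelihood test). MEF2C averaged 62.0 ± 3.53 and 1.63 ± 2.10 (5.29, SE 0.67, adjusted p = 3.2e-06). GADD45A (ENSDARG00000043581) was among the lower ones, at 213.3 ± 35.8 and 1396 ± 574 (-2.71, SE 0.32, adjusted p = 1.4e-06 by the same test). The other GADD45A gene (ENSDARG00000104571) averaged higher in GFPlow cells, at 296.3 ± 18.3 against 95.1 ± 60.7 in β-cells. This comparison shares its β-cell libraries with that of bihormonal cells and its GFPlow libraries with that against GFPhigh cells.

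In bihormonal against GFPhigh cells 2 pathway genes rose and 1 fell, 5% of those tested, against 2.76% of all genes. GADD45G averaged 4349 ± 1908 normalized counts in bihormonal and 1044 ± 108 in GFPhigh cells (log2 fold change 2.06, SE 0.50, adjusted p = 0.0390, edgeR's quasi-likelihood test). GADD45A (ENSDARG00000043581) rose by 1.09 (SE 0.30, adjusted p = 0.0479) and RPS6KA4 fell by 1.92 (SE 0.41, adjusted p = 0.0271), with -1.25 (adjusted p = 0.223) without GFPhigh 2. The count was 0 without GFPhigh 2, bihormonal 4 or bihormonal 5 and 5 without beta 7. It was 6 without bihormonal 2 or bihormonal 6 and 7 without GFPhigh 3. Over all genes 13, 68 and 58 passed without GFPhigh 2, bihormonal 4 and bihormonal 5, against 405 with every library kept. Without 1 library the log2 fold change was 1.83 to 2.21 for GADD45G, 0.945 to 1.24 for GADD45A and -2.18 to -1.25 for RPS6KA4. The 3 calls were thus lost without some single libraries, although the signs held.

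**Figure D4:**
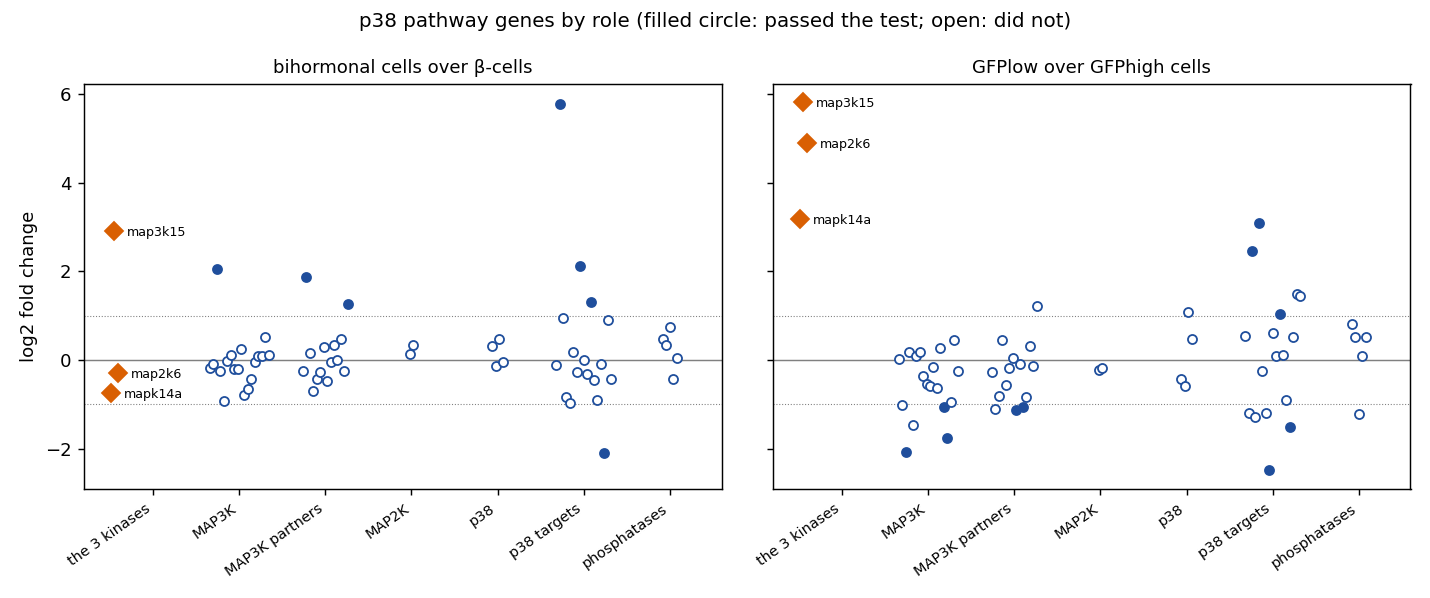
Log2 fold changes of the 3 kinase genes (diamonds) and the 60 tested pathway genes (circles, filled where adjusted p was under 0.05 and the change above 2-fold), by role, in bihormonal over β-cells (left) and GFPlow over GFPhigh cells (right), with dotted lines at 2-fold. In the right panel the 3 kinase genes, picked on these levels, lie at 5.83, 4.91 and 3.18, and the list's median is -0.19.

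The sister MAP kinase modules, JNK and ERK, were read from 22 genes, all of them tested. In bihormonal against β-cells 1 rose and 2 fell, 13.6% beside 13.2% of all genes. JUN, the transcription factor that JNK phosphorylates, averaged 1146 ± 531 normalized counts in bihormonal and 3360 ± 1814 in β-cells (log2 fold change -1.55, SE 0.39, adjusted p = 0.00651, edgeR's quasi-likelihood test). KSR2, an ERK scaffold, averaged 6.55 ± 5.02 and 63.3 ± 12.9 (-3.20, SE 0.56, adjusted p = 0.000225), and MAPK8IP1, a JNK scaffold, rose by 1.53 (SE 0.36, adjusted p = 0.00405). With the set as a term only KSR2 passed, since JUN came to -0.99 (adjusted p = 0.280) and MAPK8IP1 to 0.03 (adjusted p = 0.981).

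In GFPlow against GFPhigh cells 2 of the 22 rose and 3 fell, 22.7% beside 15.7% of all genes. JUN averaged 4429 ± 1468 normalized counts in GFPlow and 525.6 ± 329.6 in GFPhigh cells (log2 fold change 3.07, SE 0.60, adjusted p = 0.000983, edgeR's quasi-likelihood test), and DUSP6, an ERK phosphatase that ERK signalling itself induces, averaged 1891 ± 362 and 876.4 ± 332.3 (1.11, SE 0.38, adjusted p = 0.0452). The DUSP6 call was lost under 11 settings, among them without GFPhigh 1, GFPhigh 2, any 1 GFPlow library, bihormonal 1, bihormonal 6, beta 1 or beta 7 and with the set as a term (0.88, adjusted p = 0.400), and with the set JUN came to 1.78 (adjusted p = 0.218). MAPK10 (JNK3) fell by 1.34 (adjusted p = 0.00497), MAPK8IP3 by 1.11 (adjusted p = 0.00160) and KSR1 by 1.62 (adjusted p = 0.000984), though on library totals none of the 3 passed. With the set as a term 1 gene passed, and 3 passed without GFPlow 2. In bihormonal against GFPhigh cells 0 of the 22 passed with edgeR, where 2.76% of all genes did. Of the 22, 6 had an unadjusted p under 0.05 by edgeR's quasi-likelihood test, as had 4095 of all 14693 genes tested. DESeq2 called 2 of the 22 and 1152 of all genes. In GFPlow against β-cells 2 rose and 2 fell, 18.2% beside 17.7% of all genes.

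Immediate early genes, which MAP kinases switch on within minutes, had their highest summed level in β-cells, at 83100 to 155500 normalized counts a library. The sum was 32170 to 77540 in bihormonal, 60270 to 62580 in GFPhigh and 58840 to 68930 in GFPlow libraries. In bihormonal against β-cells 0 of the 17 tested rose and 13 fell (median log2 fold change -1.43), while 5.76% of all genes fell. With the set as a term 7 passed, a setting to which the 5.76% does not apply. *ier2a* averaged 3154 ± 1106 normalized counts in bihormonal and 16630 ± 6370 in β-cells (-2.40, SE 0.28, adjusted p = 1.4e-06, edgeR's quasi-likelihood test). In GFPlow against GFPhigh cells 4 of 17 rose and 0 fell, where 7.83% of all genes rose, among them ATF3 at 762.6 ± 358.4 normalized counts in GFPlow and 47.1 ± 19.0 in GFPhigh cells (4.02, SE 0.82, adjusted p = 0.00141). The count was 2 without GFPhigh 2 and 0 with the set as a term. In GFPlow against β-cells 5 rose and 3 fell, and in bihormonal against GFPhigh cells 0 rose and 2 fell, where 17.7% and 2.76% of all genes passed.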

How the data were processed

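Per the labels, cells were sorted by FACS and cDNA was made by SMART-Seq2 without molecular identifiers. The submitters' processing notes name STAR, featureCounts, DESeq2 and the GRCz11 genome; tool versions are not given in the sources used here. The authors deposited raw read counts per gene (31901 genes, 1 table per library, nothing normalized), and the authors' counting decides reads shared between paralogs. Groups came from sample titles. The study's methods call the libraries of a group independent biological replicates.

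Counts were scaled by TMM and fitted with edgeR 4.0.16 (R 4.3.3), 1 mean per group over all 19 libraries. The 14693 genes averaging 10 or more normalized counts over all libraries were tested. Calls needed an adjusted p under 0.05 (quasi-likelihood test, Benjamini-Hochberg) and more than 2-fold. The SE is the log2 fold change divided by the root of the F statistic. The steps were tested on simulated data. The common dispersion of 0.139 corresponds to a biological coefficient of variation of 37.3%.

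The 3 genes and all lists were chosen with earlier results of these data known. Named genes were the 3 kinases, their paralogs, up to 3 called genes per list, direction and comparison with the smallest p, and the 5 closest profiles. MAP3K13, *taok1b*, ZFP36L2, a second gene each of GADD45A, MKNK2 and ZFP36L1 and the *cdx4* and *sst1.2* values were named after their values were seen. Some list symbols were matched to table names after the files were opened. Alternatives were DESeq2 1.42.0, its size factors, library totals, filterByExpr, no filter, fitting the 2 compared groups alone, a block for the replicate number, a block for the library set, and leaving out each library. Levels per length and sequences were not analysed here.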

Additional observations from a re-analysis of the deposited data

Results flagged for a closer look

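In a group of 4 to 10 libraries, a value was singled out where its gap to the nearest other value took up most of the group's range (Dixon's 95% criterion, which chance meets in about 1 of 20 groups). Of 28 group values examined, 3 met it. Bihormonal 1 had 10.9 *map3k15* counts per 1000 *sst2* counts, against 4.79 for the next library. Among β-cell libraries, beta 1 had 2986 normalized counts of GADD45G, against 1151 for the next, and beta 4 had 6559 of JUNB, an immediate early gene, against 3766.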

How the results depend on the processing

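In bihormonal against β-cells, *map3k15* passed and *map2k6* did not under every setting tried, and *mapk14a* passed on library totals only (-1.35). On library totals 3603 genes and 15 pathway genes passed there. With the library set as a block, which leaves bihormonal 1 to 3 and GFPlow 1 out of the differences, 1 JNK or ERK gene and 7 immediate early genes passed. Over the settings other than leaving out 1 library, the set block among them, 1342 to 3603 of all genes passed.

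Calls in bihormonal against GFPhigh cells moved most. In place of 405 genes, 1152 passed with DESeq2, 50 on library totals, 31 with the 2 groups alone and 41 with the set block. Without 1 library the count was 13 (GFPhigh 2) to 920 (GFPhigh 3), with 58 and 68 without bihormonal 5 and bihormonal 4, 659 and 882 without bihormonal 6 and bihormonal 2, and 185 to 251 without beta 2, 3 or 4 or any 1 GFPlow library. In place of 3 pathway genes, 8 passed with DESeq2, 5 with its size factors, 0 on totals, with the 2 groups alone and with the set block, and 0 to 7 without 1 library. In place of 0 JNK and ERK genes, 2 passed with DESeq2 and with its size factors, 1 with the set block, and 0 to 2 without 1 library.

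In GFPlow against GFPhigh cells 819 genes passed with the set block and 2305 without it, and with it 2 pathway, 1 JNK or ERK and 0 immediate early genes passed. On totals 2 JNK and ERK and 7 immediate early genes passed, where the median log2 fold change of all genes was 0.59. Without 1 library the counts were 2 to 12 pathway, 3 to 5 JNK and ERK and 2 to 5 immediate early genes, and 1636 to 2651 of all genes. Differences that changed sign were those of MAP2K4 (0.30 on totals, -0.446 to 0.052 without 1 library, with the highest without GFPhigh 1), *map2k4b* (0.37 on totals), MAPK14 (0.14 on totals) and MAP3K5 (-0.004 with the 2 groups alone, -0.20 to 0.30 without 1 library, below 0 without GFPhigh 3 or GFPlow 3). The cause was not tested.

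Libraries with the same replicate number did not deviate together (21 pairs, r from -0.239 to 0.108, median -0.018), so the numbers do not pair them. Of 15 pairs that share a set, 7 had r over 0.1 (median 0.099, highest 0.44), against 18 of 114 pairs from different sets (median -0.024). The main fit has no term for the set. With the replicate block, 3 genes and 0 pathway genes passed in bihormonal against GFPhigh cells, and 5 pathway genes in GFPlow against GFPhigh cells.

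GFPlow and GFPhigh have 3 libraries each, so changes there that missed the threshold are not shown to be absent. *map3k15* in β-cells rests on 4 to 17 reads a library, so counting error is large there. The settings for the immediate early genes were chosen after seeing the data.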
